A study of Mus musculus with 6 samples.

Results

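The 10 genes examined here encode RNA-binding proteins that act on the stability of inflammatory mRNAs. They comprise the TTP family (Zfp36, Zfp36l1 and Zfp36l2), the Regnases Zc3h12a and Zc3h12c, the Roquins Rc3h1 and Rc3h2, and 3 other proteins that bind AU-rich elements, namely Elavl1, Khsrp and Hnrnpd. They were chosen with earlier results of these data known. Their rows were found by name, through the GENCODE M21 symbols of the Ensembl identifiers in the gene count table. All 10 were found among its 55335 rows, and all 10 passed the filter on low counts that left 15687 genes for testing. They were measured by total RNA-seq in bone marrow-derived macrophages (BMDMs) from C57BL/6 mice, grown from marrow cells in medium conditioned by L929 cells. Of the 6 libraries, 3 came from cells given PBS (Control) and 3 from cells given LPS, the endotoxin sensed by Toll-like receptor 4, all at 1 h. All 6 are C57BL/6, and their library names begin with WT (wild type). The labels give neither the age of the mice nor the LPS dose. The labels number replicates 1, 2 and 3 in both groups and call the numbers batches. They do not say that replicates came from separate mice or cultures, so p-values measure the spread between these samples, which may be technical.

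Many cytokine mRNAs carry AU-rich elements or stem-loops in their 3′ UTRs that shorten their life. TTP, the protein of Zfp36, and its relatives bind AU-rich elements and recruit the CCR4-NOT deadenylase, which removes the poly(A) tail, whereas the Regnases cut stem-loops with their own nuclease domain and the Roquins bind stem-loops and bring in deadenylation and decapping enzymes. In macrophages, TTP is itself an LPS-induced protein whose activity is held back by phosphorylation through p38 and MK2, and it acts on Tnf mRNA and on its own transcript.

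The AU-rich elements of the members' own mRNAs were read from the GENCODE M21 transcripts (GRCm38), using for each gene the 3′ UTR of its longest complete coding transcript. The windows below are shown because they hold as many matches to the core pentamer ATTTA as any window of 30 bases in the 3 TTP-family transcripts and in Elavl1. Other windows of the TTP-family transcripts hold as many, and the choice among them went by heptamer matches and then by how centred the matches were. Each is written 5′ to 3′ on the transcript (minus) strand, and has the ATTTA matches in capitals. They lie at chr7:28376958-28376987 (Zfp36), chr12:80108431-80108460 (Zfp36l1), chr17:84184918-84184947 (Zfp36l2) and chr8:4285777-4285806 (Elavl1).
Zfp36: cctttATTTAtgacgactttATTTAttgta
Zfp36l1: cttATTTAacttatcaaaacgtATTTAttg
Zfp36l2: gaaaaactATTTAacttATTTAttatcttg
Elavl1: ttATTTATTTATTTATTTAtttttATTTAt

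The Zfp36 window begins 571 bases after the stop codon of a 3′ UTR of 774 bases. That 3′ UTR held 3 matches to ATTTA, 3 to the heptamer TATTTAT and 1 to the nonamer TTATTTATT. Longer motifs contain the shorter ones, overlapping matches were each counted, and the sense strand alone was searched. Zfp36l1 had 9, 3 and 1 matches in 1835 bases and Zfp36l2 had 5, 3 and 1 in 1822 bases. All 3 TTP-family transcripts therefore carried the nonamer, which was found in 7.56% of the 20874 annotated 3′ UTRs; in 3′ UTRs within 20% of their own lengths the share was 4.14%, 9.77% and 9.79%, respectively.

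Elavl1, whose protein HuR stabilizes AU-rich mRNAs, had 17 ATTTA matches and 8 nonamer matches in 4218 bases, and the nonamer occurred in 17.7% of 3′ UTRs of like length. Rc3h2 had 25 ATTTA matches in 5331 bases, a number reached by 1.78% of 3′ UTRs of like length. Rc3h1 had 20 in 7181 bases, reached by 19.8%. Both Roquin transcripts held 1 nonamer, as did 21.8% (Rc3h2) and 27.2% (Rc3h1) of 3′ UTRs of like length. The Regnases differed from each other in 3′ UTR length, with 3 ATTTA matches and no heptamer in 856 bases of Zc3h12a and 14 ATTTA matches and 2 heptamers in 4062 bases of Zc3h12c. Khsrp and Hnrnpd had 1 and 10 ATTTA matches in 1642 and 5429 bases, numbers reached by 86.8% and 50.3% of 3′ UTRs of like length, and neither had a heptamer. In all, 10 of 10 members had ATTTA, 7 the heptamer and 6 the nonamer, beside 64.7%, 27.5% and 7.56% of all annotated 3′ UTRs, whose median length was 937 bases. Most members' 3′ UTRs are longer than that, and among 3′ UTRs of each member's own length the share with ATTTA ran from 65% to 100%, that with the heptamer from 19.9% to 77.4% and that with the nonamer from 4.14% to 27.2%. These matches describe the letters and not sites of binding.

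**Figure D1:**
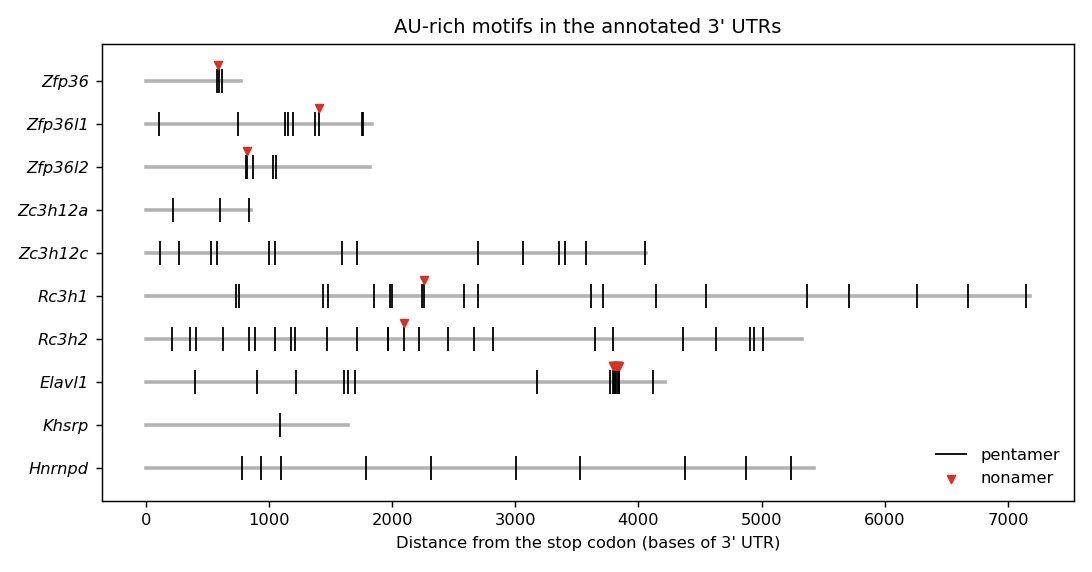
Positions of matches to the pentamer and the nonamer along the annotated 3′ UTR of each member, in bases after the stop codon. Heptamer matches are not drawn. The Elavl1 matches include the group of overlapping nonamers toward the 3′ end, and Khsrp carries a single ATTTA.

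The libraries held 37787611 to 41516330 counts. A floor of 3 counts equalled 0.063 to 0.0919 normalized CPM (CPM, counts relative to the library total times its TMM scaling factor) and covers counting error only. Each member had at least 737 counts in every library. The 8 macrophage markers were all present and summed to 29946–31229 normalized CPM in Control and 35886–36245 in LPS. Lyz2 made up most of this sum, with means of 23272 and 24224. The markers did not move together: Cd14 rose from a mean of 398 to 3623, Fcgr1 was lower in LPS (396 and 284) and Mertk had no call. The others were higher in LPS by adjusted p without reaching a log2 change of 1. Neutrophil markers (6 of 6 present, Ly6g at no more than 3 counts) summed to 33.8–35.8 and 45.3–47.8, and dendritic cell markers (4 of 4 present) to 3.15–4.01 and 9.62–10.6. Fibroblast markers (5 of 5) summed to 13.5–14.6 and 15.2–17.6, B cell markers (4 of 4) to 2.61–2.92 and 2.62–3.4, and T cell markers (5 of 5) to 0.462–0.708 and 0.536–0.676. Erythroid markers (3 of 4 with any count, Hba-a2 at 0) reached at most 0.298. The part of these other cell types in the results was not tested. In bulk samples a change in the number of cells of a type cannot be told apart from a change in RNA per cell. The TMM factors were 1.15 in Control and 0.864 to 0.872 in LPS, so scaling bears on every fold change, and scaling by library size alone moved the median log2 fold change of all tested genes by -0.40.

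Of the 10 members, 4 rose past both criteria, namely an adjusted p under 0.05 together with a log2 change of more than 1 in either direction. None fell past both. Over all tested genes, 10.5% rose and 10.4% fell past both. The members were chosen with earlier results of these data known, so their counts are not independent evidence beside these shares. By adjusted p alone, 9 members were higher and 1 was lower in LPS, against 32.9% and 34.9% of tested genes. These counts depend on the scaling, with 7 higher and 1 lower under upper quartile scaling and 6 higher and 3 lower under library size alone, where Khsrp and Hnrnpd changed sign and Rc3h2 lost its call. The 4 that rose were Zfp36, Zc3h12c, Zc3h12a and Zfp36l1. The 6 others, which had smaller differences, were both Roquins, Zfp36l2 and the 3 other AU-rich element binders. The median log2 fold change was 0.67 over the members and -0.01 over all tested genes. For all 10 members the 3 LPS values did not overlap the 3 Control values, which was so for 70.5% of tested genes.

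**Figure D2:**
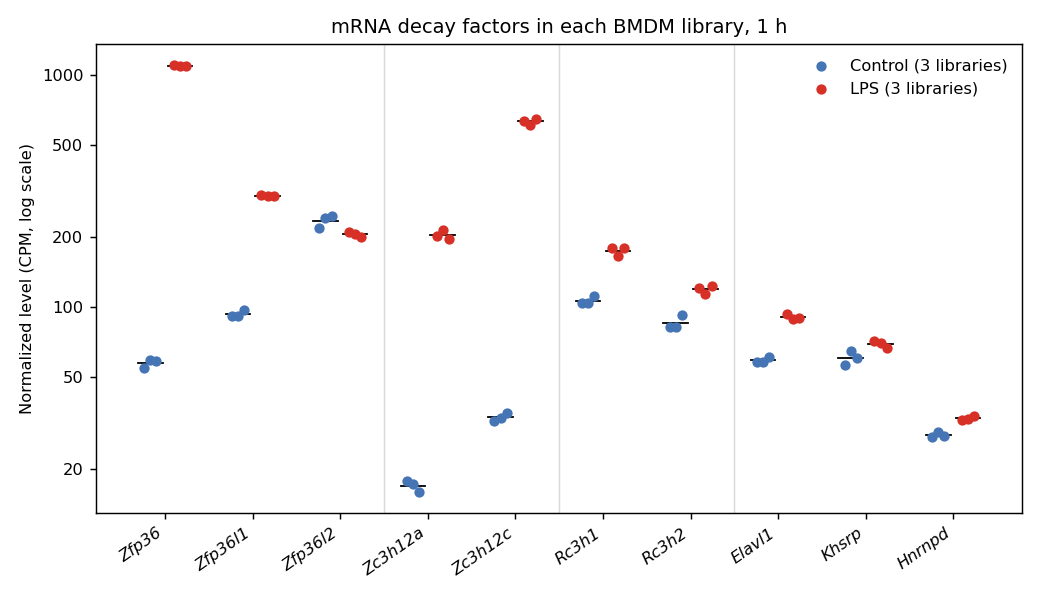
Normalized CPM of each member in the 3 Control and 3 LPS libraries (log axis; points are libraries, horizontal lines are group means). Zfp36, Zfp36l1, Zc3h12a and Zc3h12c lie well above their Control points in LPS, and Zfp36l2 is the member with lower LPS points under this TMM scaling.

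Zfp36 (ENSMUSG00000044786.6, chr7:28376784-28380253, minus strand) encodes TTP, the AU-rich element binder that marks cytokine mRNAs for deadenylation. It stood at 54.5, 59.2 and 58.5 normalized CPM in Control replicates 1, 2 and 3 and at 1103, 1099 and 1097 in LPS. The LPS libraries were all far above the Control libraries and lay close together. The mean went from 57.4 ± 2.52 to 1100 ± 3.19 normalized CPM (SD, n = 3 each), 19.1-fold. The log2 fold change was 4.26 (SE, the standard error, 0.04, Benjamini-Hochberg adjusted p = 1.05e-22 in edgeR's quasi-likelihood fit), the 257th highest of all tested genes.

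Zfp36l1 (chr12:80107754-80113013, minus strand), a TTP relative with the same paired CCCH zinc fingers, measured 91.3, 91.1 and 97.3 normalized CPM in Control and 305, 301 and 302 in LPS. All LPS values were above all Control values. Its mean rose 3.25-fold, with a log2 fold change of 1.70 (SE 0.04, edgeR adjusted p = 6.52e-18). In the annotation, 55.9% of its exon bases (1672 of 2990) are overlapped by exons of the lincRNA Gm26669 on the opposite strand. Gm26669 was not analysed here and the strand setting of the counting is not given in the sources used here, so the part of these reads that belongs to it was not tested.

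Zfp36l2 (ENSMUSG00000045817.8, chr17:84183931-84187947, minus strand) encodes the third TTP-family protein. Under TMM scaling it was the 1 member that was lower in LPS. Its values were 219, 243 and 246 normalized CPM in Control and 210, 206 and 201 in LPS. The groups did not overlap, but the lowest Control library lay close to the highest LPS library. The means were 236 ± 14.9 and 206 ± 4.43 (SD, n = 3 each), with a log2 fold change of -0.20 (SE 0.04, edgeR adjusted p = 0.000367), so Control was 1.15-fold higher. It had an adjusted p under 0.05 without reaching the fold criterion, and its log2 fold change was -0.34 with upper quartile scaling and -0.60 with library size alone.

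Because the 3 relatives moved by different amounts, their proportions within a library were compared, a measure that does not depend on scaling between libraries. Counts were divided by the length of the merged exons of each gene. In Control, Zfp36l2 held 58.3% ± 0.975 of the family's counts per length, Zfp36l1 27.2% ± 1.03 and Zfp36 14.5% ± 0.246 (SD, n = 3). In LPS the order was inverted, with Zfp36 at 66.5% ± 0.196, Zfp36l1 at 21.3% ± 0.0958 and Zfp36l2 at 12.2% ± 0.196. Zfp36l2 stood 4.03-fold above Zfp36 per length in Control, and Zfp36 stood 5.44-fold above Zfp36l2 in LPS. That log2 ratio moved by 4.46 (SE 0.02), the log2 ratio of Zfp36 to Zfp36l1 by 2.56 and that of Zfp36l1 to Zfp36l2 by 1.90. None of these ratios overlapped between groups. For each, a two-sided exact permutation test gave p = 0.1, the smallest value 3 against 3 libraries allow, and p = 0.1 after Benjamini-Hochberg adjustment over the 8 ratios computed. The summed level of the family was 115 ± 5.64 FPKM in Control and 476 ± 2.76 in LPS, 4.16-fold higher; here FPKM means normalized CPM divided by the merged exon length in kb.

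**Figure D3:**
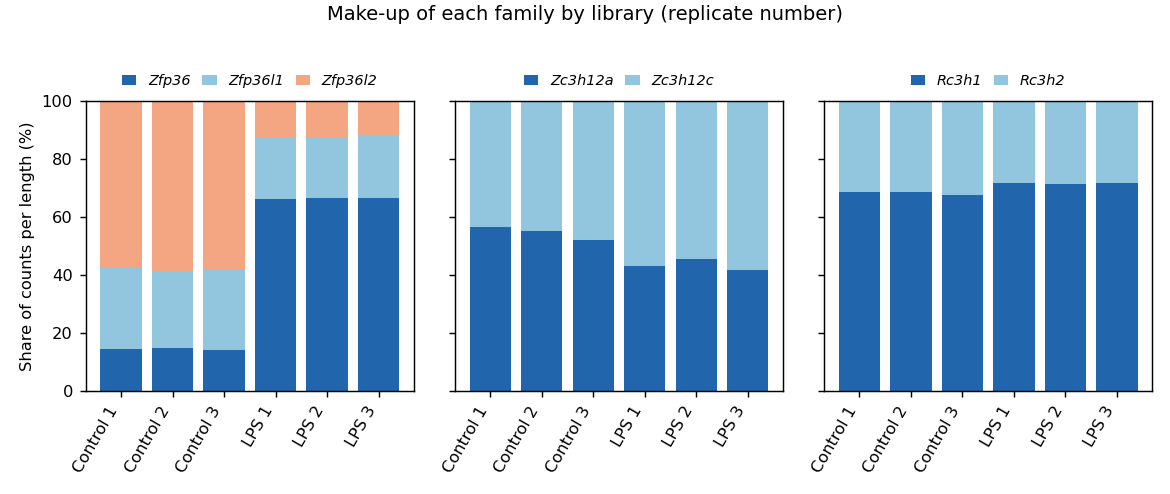
Share of each member in the summed counts per length of the members of its family, in percent, for each of the 6 libraries. Relatives outside the member list, such as Zc3h12d, are left out. In the TTP family Zfp36l2 holds the greatest share in the Control libraries and Zfp36 in the LPS libraries, while the Roquin shares differ little.

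Both Regnases rose. Zc3h12a (ENSMUSG00000042677.7, chr4:125118423-125127840, minus strand) encodes Regnase-1, a ribonuclease that cleaves stem-loops in Il6 and other mRNAs. It had 17.7, 17.3 and 16 normalized CPM in Control and 203, 215 and 196 in LPS. The LPS libraries were more than 10-fold above all Control libraries. The means were 17 ± 0.9 and 205 ± 9.64 (SD, n = 3 each), 12.1-fold apart, with a log2 fold change of 3.59 (SE 0.05, edgeR adjusted p = 7.77e-21).

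Zc3h12c (chr9:52111344-52168572, minus strand) encodes Regnase-3, a relative with the same type of nuclease domain. It measured 32.4, 33.4 and 35 normalized CPM in Control and 633, 612 and 649 in LPS, again without overlap. The mean rose 18.8-fold, with a log2 fold change of 4.23 (SE 0.04, edgeR adjusted p = 1.34e-22), close to that of Zfp36. Per length, Zc3h12a held 54.5% ± 2.28 of the pair in Control and 43.5% ± 1.88 in LPS (SD, n = 3), so Zc3h12c held the larger share in LPS. The log2 ratio of Zc3h12a to Zc3h12c went from 0.26 to -0.38 without overlap (exact permutation p = 0.1, the smallest possible, two-sided). The pair's summed level was 10.8 ± 0.129 FPKM in Control and 163 ± 0.659 in LPS, 15.1-fold higher. This sum leaves out the Regnase relatives Zc3h12b and Zc3h12d. Zc3h12d was above the pair's sum in Control, at 15.6 FPKM, and lower in LPS, at 6.99.

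The Roquins were higher in LPS by less than the fold criterion. Rc3h1 (chr1:160906418-160974978, plus strand) encodes Roquin-1, which recognizes stem-loops and pairs with Regnase-1 in repressing shared targets. It stood at 104, 104 and 112 normalized CPM in Control and at 179, 166 and 180 in LPS, a log2 fold change of 0.72 (SE 0.04, edgeR adjusted p = 1.58e-11) or 1.64-fold. The groups were apart by more than either group's own range. With library size alone the log2 fold change was 0.31.

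Rc3h2 (chr2:37370069-37422903, minus strand) encodes Roquin-2, which overlaps with Roquin-1 in function. Its values were 81.9, 82.2 and 92.1 normalized CPM in Control and 121, 114 and 123 in LPS. The groups did not overlap, and the log2 fold change was 0.49 (SE 0.05, edgeR adjusted p = 2.76e-08). When libraries were scaled by their size alone it was 0.08 and its adjusted p in edgeR's test was 0.111. Rc3h1 held 68.4% ± 0.557 of the pair per length in Control and 71.7% ± 0.133 in LPS. The log2 ratio of Rc3h1 to Rc3h2 differed by 0.23 (SE 0.02) without overlap (exact permutation p = 0.1, two-sided). The merged exons of Rc3h2 span 19624 bp and its longest coding transcript 8948 bp, and with the latter length the Rc3h1 share was 50.4% in Control and 54.3% in LPS.

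Among the other AU-rich element binders, Elavl1 (chr8:4285382-4325413, minus strand), which encodes HuR, was at 57.7, 58.1 and 61.1 normalized CPM in Control and 93, 88.6 and 89.9 in LPS. All LPS libraries were higher, by 1.53-fold in the mean, with a log2 fold change of 0.62 (SE 0.04, edgeR adjusted p = 7.6e-11), which was 0.21 with library size alone. HuR and TTP bind overlapping sets of AU-rich sequences with opposite effects on mRNA life. Per length, Zfp36 mRNA stood 2.91-fold above Elavl1 mRNA in Control and 36.3-fold above it in LPS. That log2 ratio moved by 3.64 (SE 0.04) with no overlap between groups (exact permutation p = 0.1, two-sided).

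Khsrp (chr17:57021051-57031522, minus strand) encodes KSRP, which promotes decay of AU-rich mRNAs. It had 56.5, 64.7 and 60.4 normalized CPM in Control and 71.1, 70.2 and 66.8 in LPS, groups that did not overlap but lay close. Hnrnpd (chr5:99955935-99978938, minus strand), which encodes the AU-rich element binder AUF1, had 27.4, 29 and 27.7 in Control and 32.7, 33 and 33.8 in LPS. The log2 fold changes were 0.20 (SE 0.05, adjusted p = 0.00117) for Khsrp and 0.24 (SE 0.05, adjusted p = 0.000135) for Hnrnpd by edgeR's quasi-likelihood test, and scaling by library size alone turned them to -0.21 and -0.16. With upper quartile scaling they were 0.05 and 0.10, with adjusted p of 0.324 and 0.0581 in edgeR's test. No direction is therefore given for these 2 genes. Relative to Zfp36 they were far lower in LPS whatever the scaling, since Zfp36 stood 19.7-fold above Khsrp and 70.2-fold above Hnrnpd per length, against 1.18-fold and 4.34-fold in Control.

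**Figure D4:**
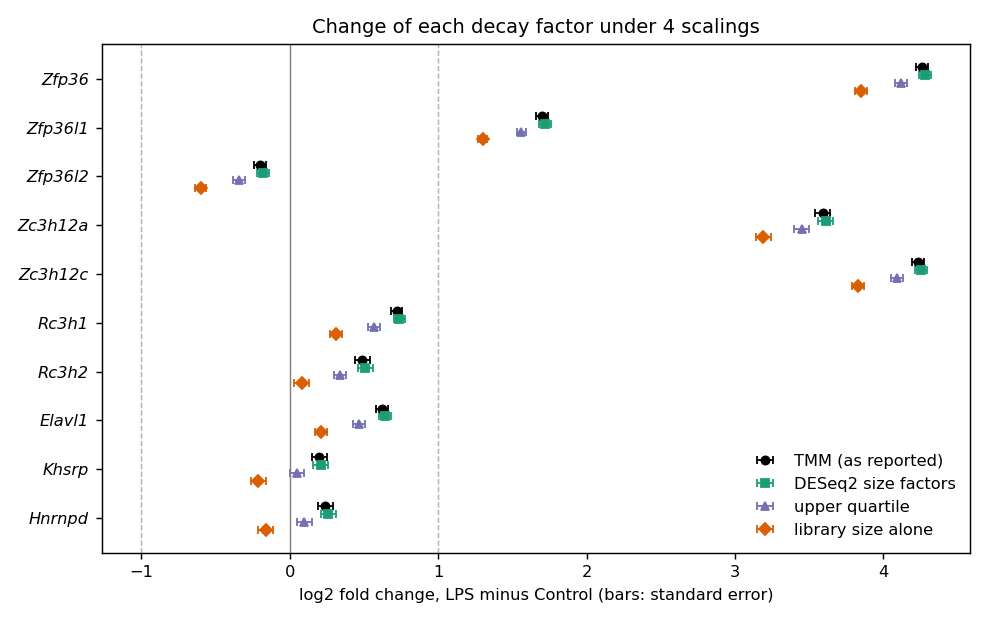
Log2 fold change (LPS minus Control) of each member under TMM scaling, DESeq2's size factors, upper quartile scaling and library size alone (bars, standard error; dashed lines, the fold criterion). The 4 members above 1 stay above 1 under each scaling, whereas Khsrp and Hnrnpd change sign with library size alone.

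The order of the members by level per length also changed. In Control, Zfp36l2 was first at 66.8 ± 4.23 FPKM, followed by Zfp36l1 at 31.2 ± 1.18, Zfp36 at 16.6 ± 0.727 and Khsrp at 14 ± 0.948 (SD, n = 3). Rc3h1 followed at 9.42, Zc3h12a at 5.89, Elavl1 at 5.69, Zc3h12c at 4.91, Rc3h2 at 4.35 and Hnrnpd at 3.81. Zc3h12a and Elavl1 were the neighbours whose libraries overlapped. In LPS the order was Zfp36 at 317 ± 0.919 FPKM, Zfp36l1 at 101 ± 0.777, Zc3h12c at 92.3 ± 2.75, Zc3h12a at 71.1 ± 3.35 and Zfp36l2 at 58.2 ± 1.26. Khsrp at 16.1 and Rc3h1 at 15.5 overlapped, and Elavl1 at 8.73, Rc3h2 at 6.1 and Hnrnpd at 4.52 came last. Both Regnases thus passed from below Khsrp and Rc3h1 to above Zfp36l2. With the length of the longest coding transcript, 5 of 10 members kept their place in Control and 10 in LPS, and Rc3h2 and Elavl1 stood at 9.55 and 10.3 FPKM in Control and at 13.4 and 15.8 in LPS.

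The genes whose profile over the 6 libraries was nearest to a member's were sought among the 12136 tested genes that averaged 50 or more counts, by Euclidean distance between centred log2 CPM values. The nearest to Zfp36 were Ier3, an immediate early gene (distance 0.0707), the member Zc3h12c (0.096) and Rab11fip1 (0.102). Their log2 fold changes were 4.22, 4.23 and 4.31, close to 4.26 for Zfp36. Mxd1, Ripk2 and Ehd1 were nearest to Zc3h12a, at distances of 0.102, 0.126 and 0.129. Creb1, Emp1 and Kcnj2 were nearest to Rc3h1, at 0.0519, 0.0573 and 0.0645. With 1 contrast, such distances mainly order genes by the size of their change.

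The enzymes through which these proteins act were described from lists of pathway genes. The lists, like the members, were chosen with earlier results of these data known, so their counts are not independent evidence. Their counts by adjusted p are under TMM scaling and were not computed under other scalings. Of 11 CCR4-NOT subunits, none passed both criteria, and 4 were higher and 5 lower by adjusted p. Over all tested genes, 32.9% were higher and 34.9% lower by adjusted p. The log2 fold changes of the subunits ran from -0.63 to 0.49 around a median of -0.07, beside -0.01 for all tested genes. All 5 TOB and BTG genes, whose proteins link RNA-binding factors to the CAF1 deadenylase, rose past both criteria, beside 10.5% of all tested genes. Their median log2 fold change was 1.53. Btg2 had the highest log2 fold change of them, from 63, 65.2 and 63.2 normalized CPM in Control to 466, 453 and 460 in LPS (log2 fold change 2.85, SE 0.03, edgeR adjusted p = 1.93e-21). Btg1 rose from a mean of 248 to 907 normalized CPM and Tob1 from 5.44 to 15.7, log2 fold changes of 1.87 and 1.53. With library size alone or upper quartile scaling, 3 of the 5 passed both criteria.

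Decapping and 5′-to-3′ decay genes showed no called member among 15, with 3 higher and 8 lower by adjusted p and a median of -0.18. Over all tested genes, 10.4% fell past both criteria, and 32.9% were higher and 34.9% lower by adjusted p. Patl1, a decapping activator chosen for mention after its value was seen, lay just under the fold criterion at 0.98. Of the exosome and SKI genes, 14 of 15 were tested and Exosc6 was listed at 0 counts. Exosc4, a core exosome subunit, was the 1 that fell, from 17.1, 15.4 and 15 normalized CPM to 7, 6.77 and 8.14 (log2 fold change -1.11, SE 0.08, edgeR adjusted p = 1.21e-09). By adjusted p, 9 were lower and 2 higher, with a median of -0.23. None of the 10 UPF and SMG genes of nonsense-mediated decay passed both criteria (1 higher and 4 lower by adjusted p), nor did any of the 3 other poly(A) nucleases (2 higher, none lower). With library size alone, 2 UPF and SMG, 2 exosome and SKI, 1 decapping and 1 CCR4-NOT gene fell past both criteria.

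Genes whose products act on the members formed another list, also chosen with earlier results of these data known. Of 13 kinases, phosphatases, proteases and ligases, 4 rose and none fell past both criteria, beside 10.5% and 10.4% of all tested genes, and the median was 0.50. Dusp1, the phosphatase that switches off p38 upstream of TTP phosphorylation, went from 13.6, 14.5 and 14.1 normalized CPM in Control to 1239, 1334 and 1254 in LPS (log2 fold change 6.51, SE 0.05, edgeR adjusted p = 4.99e-24). The protease gene Malt1, whose product cleaves Regnase-1 and the Roquins, rose from a mean of 84.3 to 957 normalized CPM, a log2 fold change of 3.51. Mapkapk3, a kinase of the MK2 type, rose from 61.2 to 178 (1.54), and Mapkapk2, which encodes MK2 itself, from 338 to 896 (1.41). None of the 7 genes for 14-3-3 proteins, which hold phosphorylated TTP, passed both criteria. By adjusted p under TMM scaling, 6 were higher, beside 32.9% of all tested genes, and the median log2 fold change was 0.24. Library size alone moved the median of all tested genes by -0.40, a larger amount. This count may therefore depend on the scaling, which was not tested.

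**Figure D5:**
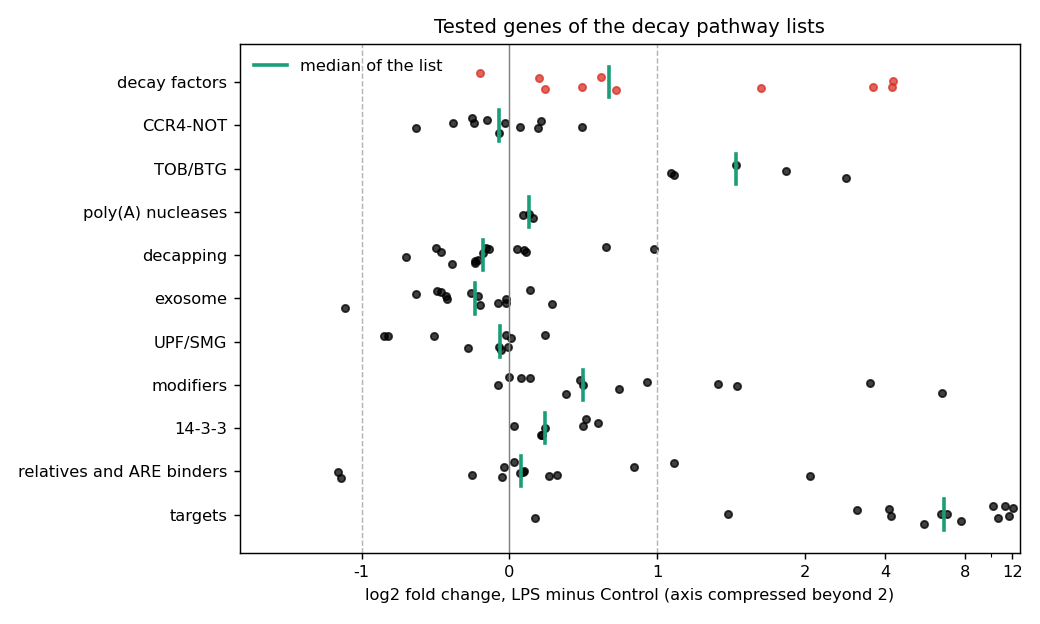
Log2 fold change (LPS minus Control) of every tested gene in the member list and each pathway list, with the list median (green line); the axis is compressed beyond 2 and dashed lines mark the fold criterion. The TOB and BTG genes all lie above 1, the CCR4-NOT, UPF and SMG and 14-3-3 genes all lie between -1 and 1, and the target transcripts reach above 12.

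Of 18 relatives and other binders of AU-rich or stem-loop elements, 14 were tested, 2 rose and 2 fell past both criteria, which is close to the 10.5% and 10.4% of all tested genes. Arid5a, whose protein stabilizes Il6 mRNA against Regnase-1, had 16.9, 17.8 and 16 normalized CPM in Control and 71.6, 71.7 and 71.5 in LPS, a log2 fold change of 2.08 (SE 0.05, edgeR adjusted p = 1.88e-17). Ptbp1, which encodes a pyrimidine-tract binder, rose from a mean of 125 to 270 normalized CPM (1.11), but was under the fold criterion with upper quartile scaling (0.97) and library size alone (0.71). Zc3h12d, the gene of a further Regnase relative, fell from 63.5, 65.3 and 63.2 to 29.4, 28.7 and 27.7 (log2 fold change -1.16, SE 0.04, edgeR adjusted p = 3.05e-14), whereas its relatives Zc3h12a and Zc3h12c rose. Zc3h12b, another relative chosen for mention after its value was seen, was at 12 to 28 counts, with a log2 fold change of -0.25 and an adjusted p of 0.446 in edgeR's test. Tia1, which encodes a translational silencer of AU-rich mRNAs, fell from 33.2 to 15.1 normalized CPM (-1.14). Zfp36l3 had at most 2 counts in any library, and the neuronal HuR relatives Elavl2, Elavl3 and Elavl4 were at 0, which allows up to 3 counts each.

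Transcripts known as targets of these proteins were taken from a list chosen with results of these libraries known, so their direction is not independent evidence. Of 14, 13 rose past both criteria, beside 10.5% of all tested genes. The median log2 fold change was 6.67. It was also 6.67 with Csf2 and Il23a, both at no more than 2 counts in each Control library, set to their bounds of at least 313-fold and 598-fold higher. Ptgs2, Il6 and Cxcl1 had the highest of these log2 fold changes, at 12.11, 11.63 and 11.22. The value of Il6 rests on 1, 2 and 4 Control counts, and the order of the 3 was not stable: without Control replicate 3, Il6 was at 12.22 and Ptgs2 at 11.95, and without Control replicate 1, Il6 was at 11.26 and Cxcl1 at 11.35.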

How the data were processed

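The authors used HISAT2 2.1.0 (alignment to GRCm38), SAMtools 1.17 and featureCounts 2.0.0 (reads per gene) on libraries made with a stranded total RNA kit. The annotation release, strand setting and handling of multi-mapping reads are not given in the sources used here. The deposited values are raw counts. Counts were tested in R 4.3.3 with edgeR 4.0.16 (filterByExpr, TMM scaling, quasi-likelihood test, no block), adjusting p-values by Benjamini-Hochberg over the 15687 genes tested. Library totals were 37787611 to 41516330 counts. Of the table's identifiers, 55154 matched a GENCODE M21 symbol without the version.

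The members and gene lists were chosen with earlier results of these data known. Named genes were all members, the up to 3 largest rises and falls called in each list (mean of at least 50 counts, same direction in each same-numbered pair), the 3 nearest profiles of Zfp36, Zc3h12a and Rc3h1, and genes whose exons overlap a member; Mapkapk2, Patl1 and Zc3h12b were named outside this rule after their values were seen, as were genes listed at or near 0. The labels pair the samples by batch number. Deviations from group means correlated by -0.0139, 0.0822 and 0.0387 within same-numbered pairs. The mean of these was 0.0357, beside -0.0178 for differently numbered pairs. Alternatives were other scalings and filters, DESeq2 1.42.0, limma voom (limma 3.58.1), a replicate block, each library left out and, for levels per length, the longest coding transcript. On simulated counts with the same dispersion for every gene, edgeR tested 15230 genes for LPS against Control. By adjusted p and direction, it recovered 199 of 200 genes shifted by 2 on the log2 scale, and 0 unchanged genes passed both criteria. Smaller shifts were not simulated, so the simulation does not bear on members called by adjusted p alone.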

Additional observations from a re-analysis of the deposited data

How the results depend on the processing

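The 4 members past both criteria kept that call under every scaling, filter, test and left-out library tried. The log2 fold change of Zfp36 was 4.22 to 4.28 with 1 library left out and 4.26 with the replicate block, and the block changed no member's call. Scaling moved it more, to 4.12 with upper quartile scaling and 3.85 with library size alone. Library size alone also lowered Zc3h12c to 3.83, Zc3h12a to 3.19 and Zfp36l1 to 1.30. With scaling by library size alone, which moved the median of all tested genes by -0.40, Rc3h2 was at 0.08 and Khsrp and Hnrnpd reversed to -0.21 and -0.16, so that 3 members were lower by adjusted p. With upper quartile scaling (median moved by -0.14), Khsrp and Hnrnpd were at 0.05 and 0.10, past no threshold. Taken relative to the median of all tested genes, Khsrp was at 0.21 under both TMM scaling and library size alone and Hnrnpd at 0.26. A change of scaling shifts all genes by nearly the same amount, so this agreement was fixed in advance. It gives no direction for these genes. Falls over the whole table numbered 1624, and 2964 with library size alone (rises then made up 29% of calls instead of 50.4%) and 1027 with at least 10 counts in every library, where 13793 genes were tested and 8 targets rose. Under that filter the targets Csf2, Il23a, Il6, Il12b and Icos were not tested, since each had fewer than 10 counts in a Control library. With the longest coding transcript as length, the Zfp36 share was 17.4% in Control and 71.2% in LPS, the Rc3h1 share 50.4% and 54.3%, and 5 members kept their place in the Control order. Patl1 passed both criteria, giving 1 called decapping gene, with DESeq2, with its size factors, and without Control replicate 1 or LPS replicate 2.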

Other observations

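Within the introns of Rc3h1, 3 unconfirmed transcript models on the same strand have rows of their own. Gm37052 was at 2.88, 2.99 and 3.77 normalized CPM in Control and 3.81, 4.11 and 4.23 in LPS, and Gm37653 at 5.96, 5.91 and 7.26 and at 7.75, 7.75 and 7.7. Their ratios of LPS to Control were 1.26 and 1.21, below the 1.64 of Rc3h1 itself, and the difference was not tested. Gm37809 had 29 to 67 counts with overlapping groups. Of the genes whose exons overlap a member's on the opposite strand, Gm44710 (Zfp36) had 6 to 14 counts, AC132455.1 (Zfp36l2) at most 7, Mir6244 (Zc3h12c) at most 8, Gm17949 (Khsrp) at most 11 and Gm17092 (Hnrnpd) 8 to 24. Ccl25, which shares 204 exon bases with Elavl1, had 184 to 391 counts and was lower in LPS (log2 fold change -0.38, adjusted p = 0.00206, edgeR's quasi-likelihood test).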
